A study of Mus musculus with 127 samples.

Results

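Transcripts of 10 genes of cytosolic and mitochondrial heat shock chaperones were described in single cells of mouse bone marrow. The genes, chosen by name, were Hspa8, Hspa1a, Hspa1b, Hsp90aa1, Hsp90ab1, Hsph1, Dnaja1, Dnajb1, Hspd1 and Hspe1, and all 10 were found among the 23946 genes of the deposited table. The cells came from wild-type C57BL/6 mice, were enriched with CD117 (Kit) beads, and were sorted into 3 gates. The cell titles call the gates with a Ly6g level GMP-P, and the remaining gate GMP. CD11b, a myeloid integrin, is in the label of all 3 gates: 46 cells were CD11b+ Ly6g high, 41 were CD11b+ Ly6g low, and 40 were CD11b+ with no Ly6g level stated (called Ly6g high, Ly6g low and CD11b+ from here). The labels name neither ages nor animals, so each gate is 1 sample, no test was possible, and differences have no replicate check. Every CD11b+ cell carries a prefix in its column label that is found on none of the Ly6g high or Ly6g low cells, and what it stands for is not stated. Which cells were captured together is not stated either, so gate and run cannot be told apart.

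Chaperones bind unfolded proteins and help them to fold. Hsp70 proteins work in cycles driven by ATP that J-domain proteins start and that nucleotide exchange factors such as Hsp110 end, and they pass clients such as kinases and hormone receptors on to Hsp90. Inside mitochondria a separate barrel, Hsp60 with its lid Hsp10, folds imported proteins. The Hsp70 and Hsp90 families each hold a member made at all times and a member that heat shock factor 1 induces under stress. In the bone marrow, dividing progenitors make much protein, and they shut down ribosome and mitochondrial genes as they mature into neutrophils.

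Heat shock factor binds repeats of a GAA unit in alternating orientation, and the windows around the members' starts (from 250 bases before to 50 after) were searched for them. The sequences are from RefSeq for GRCm38.p6, whereas the deposited expression values were made on mm9. The letters searched were GAANNTTC, TTCNNGAA and a 3-unit form made of TTC, GAA and TTC with any 2 bases between units, which contains both shorter motifs. Each reads the same on both strands except the 3-unit form, which was searched on both. Windows were found for 7 of the 10 members (not for Hspa8, Hsp90aa1 and Hsp90ab1), 12 in all, and 7 windows of 6 members held a match. Of all 32851 windows, 15.1% held one, and 198 (0.603%) held the 3-unit form. Hspd1 and Hspe1 are neighbours that point away from a shared stretch: the Hspe1 window and an Hspd1 window have 285 bases in common. The other Hspd1 window shares 4 bases with that of Hspe1 and held no match. The shared block, chr1:55088044-55088091, lies upstream of the Hspe1 start (capitals at −89 to −72), and is shown because the Hspd1 and Hspe1 pair has the sharpest split between classes below. The matching parts of Hspa1a, chr17:34972238-34972275, and Hspa1b, chr17:34959320-34959357, are shown because these genes are near-identical copies. Capitals mark the matches. Hspe1 is on the + strand, Hspa1a and Hspa1b on the − strand.
Hspe1: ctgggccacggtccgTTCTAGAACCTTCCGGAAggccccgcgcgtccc
Hspa1a: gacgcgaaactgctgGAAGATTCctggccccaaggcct
Hspa1b: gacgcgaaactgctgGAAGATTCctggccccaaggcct
The Hspa1a and Hspa1b stretches are the same, and their whole windows differ at 4 of 300 positions. The block shared by Hspe1 and Hspd1 held the 3-unit form, as did both windows of Hsph1, which overlap and hold the same matches. The 7 windows are thus not 7 separate sites. A window of Dnaja1 held GAANNTTC, and those of Dnajb1 held none of the letters searched. A match is a description of the sequence and says nothing of binding in these cells.

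The cells differed in how many genes were detected, and TPM (a gene's share of the cell's transcripts, per length and on a fixed scale) keeps no read depth. The median number of genes at 1 TPM or more was 1695 in Ly6g high, 2521 in Ly6g low and 2464.5 in CD11b+ cells. Each cell also has 1 of 11 class names from the authors, and how these were assigned is not stated in the labels. The 4 Myelo classes held 43 of 46 Ly6g high, 37 of 41 Ly6g low and 22 of 40 CD11b+ cells, and the other 25 cells (3, 4 and 18) were in the Gran, HSCP-2, Mono, MDP, Multi-Lin and Eryth classes. The Myelo cells had a median of 2035 genes and the other cells 3833. If the classes were made from expression, differences between them are descriptions and not tests. All 6 genes of the specific granule list in the table (Camp, Ltf, Ngp, Lcn2, Cybb and Itgb2l) were found in at least 25% of the cells of every gate, with median summed levels of 190823 TPM (Ly6g high), 201161 TPM (Ly6g low) and 53822 TPM (CD11b+). The 7 erythroid markers were all listed at 0 in Ly6g low, and 5 of 6 T and NK cell markers in both Ly6g gates. The summed markers of erythroid, megakaryocyte, basophil and mast, B, T and NK, and dendritic cells had a median of 0 in every gate, but single cells stood high. The highest were 222780 TPM for the basophil and mast cell list in 1 Ly6g low cell, 12662 TPM for the erythroid list in CD11b+, and 1708 (megakaryocyte), 1550 (B cell) and 1179 TPM (dendritic cell) in Ly6g high. Their part in the results was not tested.

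The 10 genes together took a small part of the transcriptome, and more of it in CD11b+ cells. Their median share of a cell's TPM was 0.0443% in Ly6g high, 0.0714% in Ly6g low and 0.250% in CD11b+ cells, and the highest shares were 1.09%, 0.923% and 2.13%. A cell had a median of 3, 4 and 5.5 of the 10 genes at 1 TPM or more. The cell with the highest share was an HSCP-2 cell of CD11b+, and the 1 cell with all 10 genes detected was a Mono cell of the same gate. The shares in the gates overlapped widely.

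**Figure D1:**
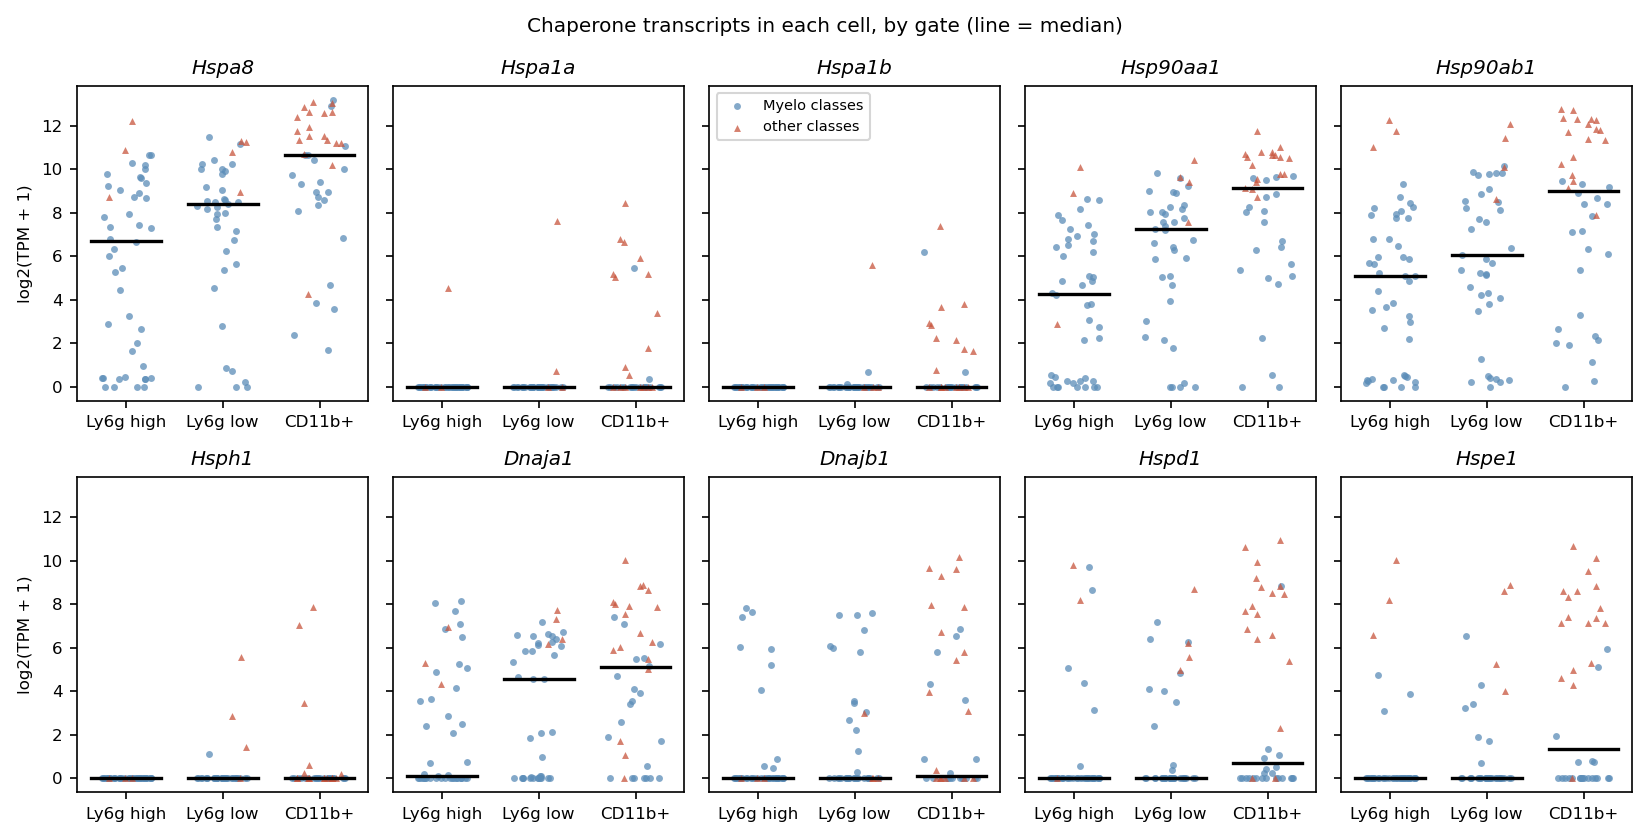
Level of each of the 10 chaperone genes, as log2(TPM + 1), in every cell, with the gates (46, 41 and 40 cells) along the x axis. Dots are cells of the 4 Myelo classes, triangles cells of the other classes, and lines are gate medians; most of the Hspd1 and Hspe1 values above 0 in CD11b+ are triangles.

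Hspa8 encodes Hsc70, the Hsp70 made at all times, and was the most abundant of the 10 by mean TPM in each gate. The lowest, median and highest cells were at 0, 105 and 4834 TPM (Ly6g high), 0, 340 and 2902 TPM (Ly6g low), and 2.25, 1620 and 9282 TPM (CD11b+). Every CD11b+ cell had it at 1 TPM or more, against 73.9% (exact 95% interval 58.9 to 85.7, counting error only, here and below) of Ly6g high and 85.4% (70.8 to 94.4) of Ly6g low cells. The ranges overlapped, but 24 CD11b+ cells were at 1000 TPM or more, against 7 Ly6g high and 10 Ly6g low cells. In mean TPM it was higher in CD11b+ by 2.06 (log2 ratio of mean TPM + 1, the scale of every ratio here) over Ly6g low and by 2.53 over Ly6g high.

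Hspa1a and Hspa1b encode the Hsp70 induced by heat and other stress, and both were at or near 0 in nearly all cells. Their reading frames are identical at 99.6% of 1926 aligned bases, so the split of reads between them is uncertain. Hspa1a was at 1 TPM or more in 1 of 46 Ly6g high (22.3 TPM, a Mono cell), 1 of 41 Ly6g low (199 TPM, a Gran-2 cell) and 10 of 40 CD11b+ cells (highest 345 TPM). Hspa1b was listed at 0 in all Ly6g high cells, stood at 46.8 TPM in the MDP cell of Ly6g low, and was detected in 10 CD11b+ cells (highest 166 TPM). As a sum, the copies were detected in 35% (20.6 to 51.7) of CD11b+ cells, and in 4.88% (0.596 to 16.5) of Ly6g low cells. In all gates, 15 of the 25 cells outside the Myelo classes and 2 of the 102 Myelo cells had the sum at 1 TPM or more. The gate means rest on few cells: cell 44, of HSCP-2, gave 44.7% of the CD11b+ sum of Hspa1a (mean 19.3 TPM, 10.9 TPM without it), and cell 21, also of HSCP-2, gave 57.5% of that of Hspa1b (7.21 TPM, 3.14 TPM without it).

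Hsph1 encodes Hsp110, a nucleotide exchange factor for Hsp70, and it was the least often detected of the 10. It was listed at 0 in all 46 Ly6g high cells, was at 1 TPM or more in 4 Ly6g low cells (highest 46.7 TPM, a Gran-2 cell), and in 3 CD11b+ cells. The CD11b+ cells were 2 Mono cells at 133 and 238 TPM and 1 Gran-1 cell at 9.95 TPM. Of the 5 Mono cells of all gates, 3 had Hsph1 at 1 TPM or more, while 0 of 72 Myelo-2, 0 of 9 Myelo-3 and 0 of 16 Myelo-4 cells did.

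The cytosolic Hsp90 pair followed the same order of gates as Hspa8. Hsp90aa1, the stress-responsive isoform, had medians of 18.1 TPM (Ly6g high, lowest 0 and highest 1093), 151 TPM (Ly6g low, 0 to 1370) and 561 TPM (CD11b+, 0 to 3493). Hsp90ab1, the isoform made at all times, had medians of 33.01 TPM (Ly6g high, 0 to 4931), 66.2 TPM (Ly6g low, 0 to 4419) and 520 TPM (CD11b+, 0 to 7142). All ranges overlapped. The ratio of CD11b+ over Ly6g low was 1.58 for Hsp90aa1 and 1.89 for Hsp90ab1, and over Ly6g high it was 2.95 and 2.35.

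Dnaja1 and Dnajb1 encode J-domain proteins, which deliver clients to Hsp70 and start its ATP hydrolysis. Dnaja1 was at 1 TPM or more in 41.3%, 60.98% and 77.5% of Ly6g high, Ly6g low and CD11b+ cells, with medians of 0.085, 22.7 and 33.3 TPM and highest values of 281, 215 and 1047 TPM. Dnajb1 was detected in 15.2%, 34.1% and 40% of the cells, with highest values of 225, 190 and 1159 TPM. Dnajb1 in CD11b+ was concentrated in HSCP-2, where the 5 cells stood at 634, 0, 789, 1159 and 803 TPM, and the 2 HSCP-2 cells of Ly6g high were both at 0. The same 5 cells had Dnaja1 at 1047, 0, 452, 480 and 276 TPM. The cell at 0 for both genes was cell 21, which carried the highest Hspa1b of all cells.

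Hspd1 encodes Hsp60 and Hspe1 its lid Hsp10, the chaperonin of the mitochondrial matrix, and they separated the deposited classes more sharply than the gates. Hspd1 was at 1 TPM or more in 7 of 46 Ly6g high, 12 of 41 Ly6g low and 19 of 40 CD11b+ cells, with highest values of 893, 418 and 2010 TPM. Hspe1 was at 1 TPM or more in 6, 10 and 20 cells, with highest values of 1056, 469 and 1661 TPM. By class, Hspe1 was detected in 24 of the 25 cells outside the Myelo classes (96%, 79.6 to 99.9) and in 12 of 102 Myelo cells (11.8%, 6.23 to 19.6), and Hspd1 in 22 (88%, 68.8 to 97.5) and 16 (15.7%, 9.24 to 24.2). The highest Hspe1 of any Myelo cell was 93.4 TPM, below the median of 169 TPM in the other cells. Hspd1 split less cleanly: its highest Myelo value was 851 TPM (a Myelo-2 cell), above the median of 208 TPM in the other cells. The Myelo-1 cells had Hspd1 at 0.42, 0, 84.2, 75.9 and 145 TPM. The exception for Hspe1 was again HSCP-2 cell 21, listed at 0. The Ly6g high mean of Hspe1 rests on 1 Mono cell, cell 77, which gave 70.9% of its sum (32.4 TPM, 9.63 TPM without it), and the Ly6g low mean rests on Mono cell 34 (25.5 TPM, 14.4 TPM without it).

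**Figure D2:**
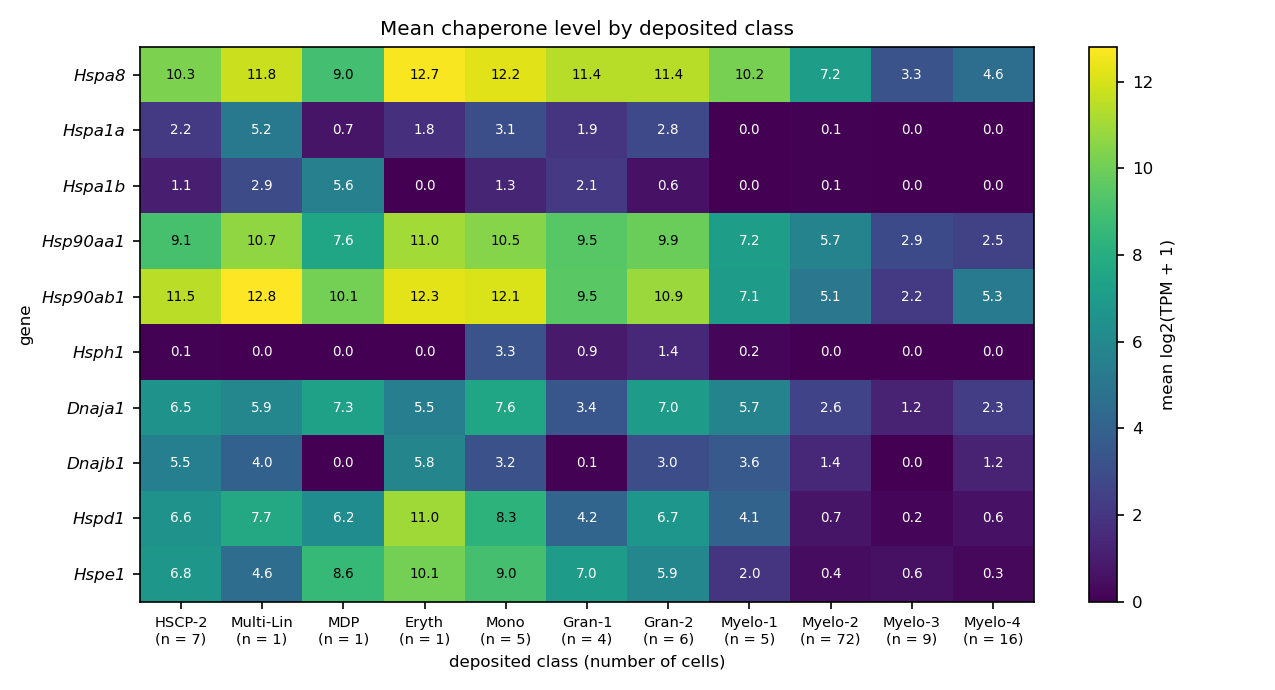
Mean log2(TPM + 1) of each chaperone gene (rows) in each deposited class (columns, with the number of cells), over all gates, with the scale on the colour bar. Hspa8 and Hsp90ab1 are high in the Mono, Gran, HSCP-2, Eryth and Multi-Lin columns, and the means of Hspd1 and Hspe1 are at 0.73 or below in Myelo-2, Myelo-3 and Myelo-4. Both are higher in Myelo-1.

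Set side by side, the mean of every one of the 10 genes was at least 2-fold higher in CD11b+ than in Ly6g low, and also than in Ly6g high. Over Ly6g low the ratios ran from 1.34 (Dnaja1) to 3.10 (Hspd1), with a median of 1.99. Over Ly6g high they ran from 1.83 (Dnaja1) to 3.77 (Hspa1a), with a median of 2.44 over the 8 genes with a fold, since Hspa1b and Hsph1 were listed at 0 there. Many genes were higher in CD11b+: of the measured genes, meaning those that reached 1 TPM in 25% or more of the cells of 1 of the gates, 30.3% were at least 2-fold higher than in Ly6g low and 7.83% lower (median ratio 0.48), and 44.5% were higher than in Ly6g high and 6.93% lower (median 0.83). None of the 10 chaperones was lower by that fold in either comparison. By that same filter, 9 of the 10 chaperones counted as measured in either comparison, Hsph1 being the exception. Over Ly6g low, Hspa1a, Hspa1b and Hspe1 passed it through the CD11b+ cells alone, the gate where they are higher. Over Ly6g high, so did these genes, Dnajb1 and Hspd1. For such genes, being measured and being higher are not independent. Both comparisons share the CD11b+ cells, so they are not independent. Markers of earlier cells were also higher in that gate: the median summed level of 6 primary granule genes (Elane, Mpo, Prtn3, Ctsg, Ms4a3 and Cst7) was 1193 TPM in CD11b+, 393 TPM in Ly6g low and 2.345 TPM in Ly6g high, and that of 6 progenitor genes (Kit, Cd34, Flt3, Myb, Meis1 and Sox4) was 63.3, 8.67 and 0.20 TPM. These sums rest on few progenitor genes: 2 of the 6 reached 1 TPM in 25% or more of CD11b+ cells, and 1 in each Ly6g gate. For the primary granule genes the counts were 6 in CD11b+, 5 in Ly6g low and 2 in Ly6g high. The part of these markers in the result was not tested.

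Between the Ly6g gates the chaperones did not move one way. Hspd1 was at least 2-fold higher in Ly6g high (54.4 and 23.1 TPM, ratio 1.20) against 7.96% of measured genes. Lower by that fold in Ly6g high were Hsp90aa1 (96.0 and 249 TPM, −1.37), Hspa1a (−1.98), and Hspa1b and Hsph1, both listed at 0 there, against 23.7% of measured genes. The other 5 lay between −0.49 and 0.33. Only 6 of the 10 counted as measured here, of which 1 (Hspd1) was higher and 1 (Hsp90aa1) lower. The direction of Hspd1 turns with the kind of mean: as a difference of mean log2(TPM + 1) it was −0.51, and 35.7% of its Ly6g high total came from HSCP-2 cell 56 (35.7 TPM without it).

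Within Myelo-2, the class with the most cells in each gate, the difference was smaller and mixed. Of the 10 genes, 4 were at least 2-fold higher in CD11b+ than in Ly6g low and 2 were lower. Only 5 of them counted as measured, of which 1 (Hspa8) was higher and 1 (Dnajb1) lower, against 17% and 23.4% of all measured genes. Dnajb1 passed the filter through the Ly6g low cells alone. Hspa8 had a median of 572 TPM in CD11b+ (2.25 to 2125, 14 cells) and 289 TPM in Ly6g low (0 to 1379, 31 cells) and a ratio of 1.02. The ratio was 0.93 for Hsp90aa1, 0.30 for Hsp90ab1 and −0.16 for Dnaja1. Dnajb1 was lower in CD11b+ (5.33 and 22.3 TPM, −1.88), as was Hspd1 (0.148 and 2.40 TPM, −1.57). The other 3 higher ones (Hspa1a, Hspa1b and Hspe1) owed 100%, 100% and 92.5% of their CD11b+ sum to 1 cell, and no gene was at least 2-fold higher once the highest cell of each gate was left out.

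Against Ly6g high, 5 of the 10 genes were at least 2-fold higher in Myelo-2 cells of CD11b+ and 2 were lower. Only 4 of them counted as measured, of which 2 (both Hsp90 genes) were higher and 0 lower, against 23.2% and 19.8% of all measured genes. Hsp90aa1 (329 and 92.6 TPM, ratio 1.82) and Hsp90ab1 (261 and 104 TPM, 1.32) were higher, while Hspa8 (758 and 475 TPM) was at 0.67. The lower genes were Dnajb1 (−1.75) and Hspd1 (0.148 and 48.7 TPM, −5.44), and 64.7% of the summed Hspd1 of Ly6g high came from cell 81. Between the Ly6g gates, Myelo-2 cells had 1 gene higher in Ly6g high (Hspd1, 3.87) and 1 lower (Hsp90ab1, −1.02). Of the 5 measured members 0 were higher and 1 was lower, against 13.1% and 19.8% of all measured genes. Hsph1 was listed at 0 in all 72 Myelo-2 cells. In Myelo-2 the medians of genes detected were 2030, 2282 and 2259 in Ly6g high, Ly6g low and CD11b+, closer together than in the whole gates.

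**Figure D3:**
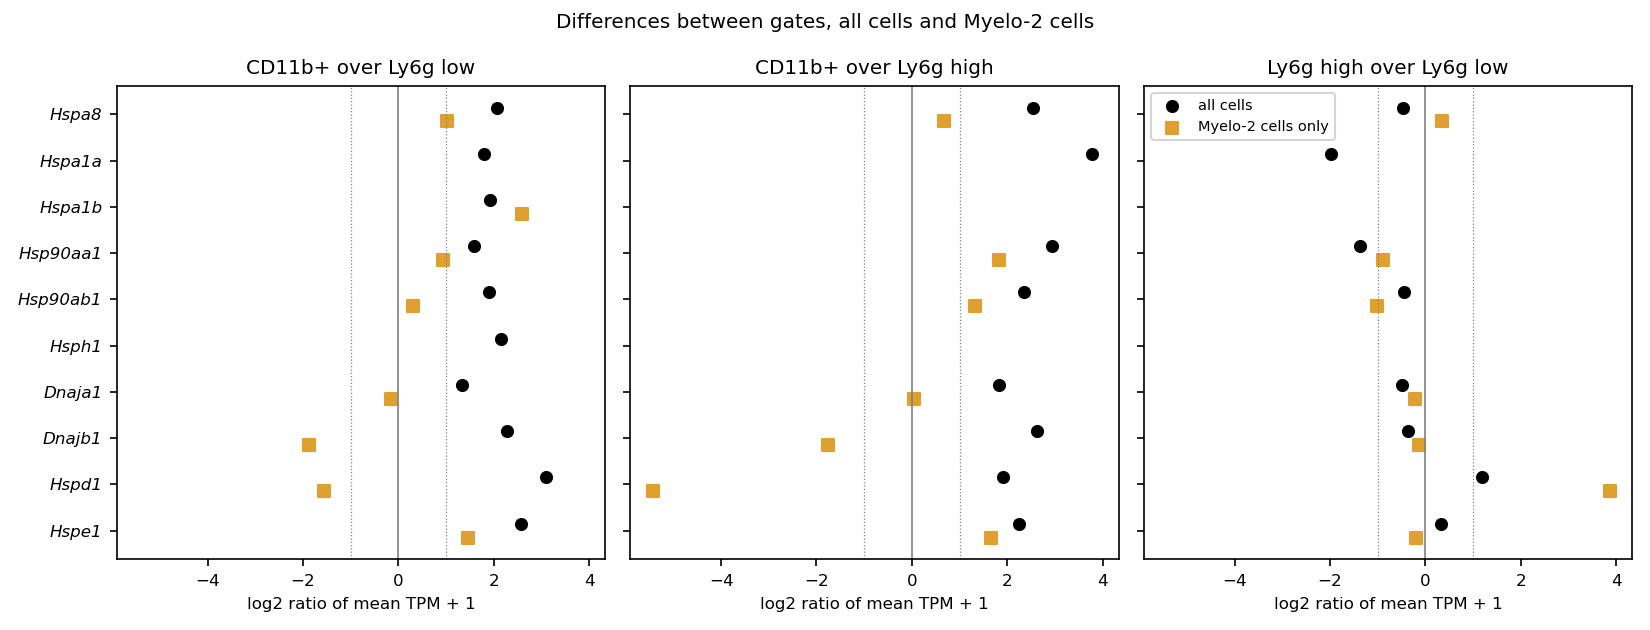
Log2 ratio of mean TPM + 1 of each chaperone gene in the 3 comparisons of gates, with all cells and with Myelo-2 cells alone as separate markers; genes listed at 0 in 1 of the groups have no marker. With all cells the markers of both CD11b+ comparisons lie at 1.34 or above, and with Myelo-2 cells they lie on both sides of 0.

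The same genes were compared between classes inside the CD11b+ gate. The 8 Gran-1 and Gran-2 cells had 9 of the 10 genes at least 2-fold higher than the 14 Myelo-2 cells and 0 lower, against 55.4% and 11.8% of measured genes, with a median ratio of 2.22 (1.26 over measured genes). Hspd1 stood at 0 to 367 TPM in the Gran cells and at 0 to 1.57 TPM in the Myelo-2 cells (means 159 and 0.148 TPM), and Hspe1 at 18.3 to 327 and 0 to 59.7 TPM (means 152 and 4.61 TPM). Hspe1 thus overlapped in few cells, and Hspd1 in the Gran cell at 0. Hspa1b, at −0.64, was the exception, and of the 9 measured members 8 were higher. Hspa1a, Hspa1b, Dnajb1, Hspd1 and Hspe1 passed the filter through the Gran cells alone. The 5 HSCP-2 cells also had 9 genes higher and 0 lower, against 51.1% and 28.3% of measured genes, with a median of 3.86 (1.06 over measured genes), the exception being Hsph1, which is at 0.52 TPM or below in those cells. Hspa1b is among the 9 through cell 21 alone (166 TPM, the whole HSCP-2 sum) and turned to −2.82 when that cell was left out with the shallowest 25% of cells. It and Hsph1 did not count as measured, and the other 8 were all higher. Of those, Hspa1a, Dnajb1, Hspd1 and Hspe1 passed the filter through the HSCP-2 cells alone. Dnajb1 (677 and 5.33 TPM, 6.74) and Dnaja1 (451 and 30.05 TPM, 3.86) were far higher in HSCP-2, while in the Gran cells they were at 1.70 and 1.51.

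A further comparison, added after the values were seen, set the 18 CD11b+ cells outside the Myelo classes against the 22 Myelo cells of that gate. All 10 genes were at least 2-fold higher and 0 lower, against 58.1% and 9.75% of measured genes, with a median of 3.80 (1.38 over measured genes). Hsph1 did not count as measured. Hspa1a, Hspa1b, Dnajb1, Hspd1 and Hspe1 passed the filter through the cells outside the Myelo classes alone. Hspe1 had the highest ratio, 5.99 (344 and 4.45 TPM), followed by Hspd1, 4.31 (432 and 20.8 TPM, or 0.221 TPM without Myelo-4 cell 46), and Hsp90ab1, 4.11 (3339 and 192 TPM). Hspa8 was at 1.64 (4198 and 1349 TPM). Its Myelo mean holds 2 of the 4 highest Hspa8 values of all cells, 9282 TPM in Myelo-4 cell 46 and 7840 TPM in Myelo-3 cell 35, in which 1811 and 821 genes were detected. The other 3 Myelo-3 cells of CD11b+ were at 13.6, 4.22 and 10.9 TPM.

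Among the Myelo classes, Hspa8 and Hsp90aa1 were lower in Myelo-4 than in Myelo-2 within Ly6g high. Hspa8 ranged from 0 to 420 TPM in the 13 Myelo-4 cells and from 0 to 1636 TPM in the 27 Myelo-2 cells (means 69.8 and 475 TPM, ratio −2.75), and Hsp90aa1 was at 24.9 and 92.6 TPM (−1.86). With Hspd1 (−5.58, 0.0362 and 48.7 TPM), 3 of the 10 were lower and 0 higher. Of the 4 measured members 2 (Hspa8 and Hsp90aa1) were lower, against 45.3% of all measured genes lower and 13.7% higher (median −0.75). Hsp90ab1 was at 91.7 and 104 TPM (−0.18) and Dnaja1 at 30.7 and 28.97 TPM (0.081). Myelo-4 cell 83 gave 67.3% of the Dnaja1 sum of its class, and without the highest cell of each the means were 10.9 and 19.3 TPM. In CD11b+ the direction of Hspa8 did not repeat: the 3 Myelo-4 cells were at 380, 1043 and 9282 TPM, beside a median of 572 TPM in Myelo-2. Their Hsp90aa1 was at 0.45, 32.8 and 85.3 TPM, beside a Myelo-2 median of 266 TPM. Myelo-4 cells had a median of 1409 genes and Myelo-2 cells 2239.5 over all gates, and the part of this in the result was not tested. The 5 Myelo-1 cells had the highest median summed level of the 10 genes among the Myelo classes (1992 TPM), with a median of 3514 genes detected. Their Hspa8 was at 490 to 2902 TPM, and their Hspe1 at 0, 0, 0, 93.4 and 9.75 TPM. The 4 Gran-1 cells had a close median of 3678 genes, with Hspe1 at 30.4 to 327 TPM (means 173 TPM in Gran-1 and 20.6 TPM in Myelo-1). Hspa1b, though low, did not overlap: it was at 0.69 to 11.6 TPM in Gran-1 and at 0 in all 5 Myelo-1 cells. Other members overlapped. Hspa8 was at 1194 to 7531 TPM in Gran-1, and Hspd1 at 0 to 240 TPM in Gran-1 and 0 to 145 TPM in Myelo-1. Hsp90ab1 was at 235 to 3367 and 1.16 to 1157 TPM. Dnaja1, at 1.06 to 64.5 and 24.2 to 83.2 TPM, and Dnajb1, at 0 to 0.29 and 0 to 190 TPM, reached higher in Myelo-1. All these ranges overlapped, except those of Hspa1b. All 4 Gran-1 cells were CD11b+, whereas 4 of the 5 Myelo-1 cells were Ly6g low.

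The balance of the Hsp90 pair differed between the classes. Hsp90ab1 exceeded Hsp90aa1 in 23 of the 25 cells outside the Myelo classes, with a median log2 ratio of the TPM of 1.46 over these 25 cells. In Myelo cells the order went either way, with Hsp90ab1 the higher in 51 of 102 and a median of −0.11 over the 64 cells in which both were at 1 TPM or more. The lowest Hsp90ab1 in the other cells was 235 TPM and the highest in Myelo cells was 1157 TPM. By gate, Hsp90ab1 was the higher in 22 of 46 Ly6g high, 24 of 41 Ly6g low and 28 of 40 CD11b+ cells. Their reading frames are identical at 76.3% of 2175 aligned bases, so reads can be told apart over most of their length, and TPM is a level per length.

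The block printed above lies in the Hspe1 window and in only 1 of the Hspd1 windows. Hspd1 and Hspe1 were detected together in 21 of the 25 other cells and in 5 of 102 Myelo cells. Each was detected without its partner in 11 (Hspd1) and 7 (Hspe1) Myelo cells. Their Spearman correlation over all cells was 0.57, and over the 72 Myelo-2 cells it was 0.16. Dnaja1 and Dnajb1 were detected together in 26 cells, and their correlation was 0.25 over all cells and 0.60 in the 25 other cells. Hspa8 exceeded Hsp90ab1 in 71 of 102 Myelo cells and in 12 of the 25 other cells. Correlations here describe cells that each are scaled to the same total and in which detection depends on depth.

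**Figure D4:**
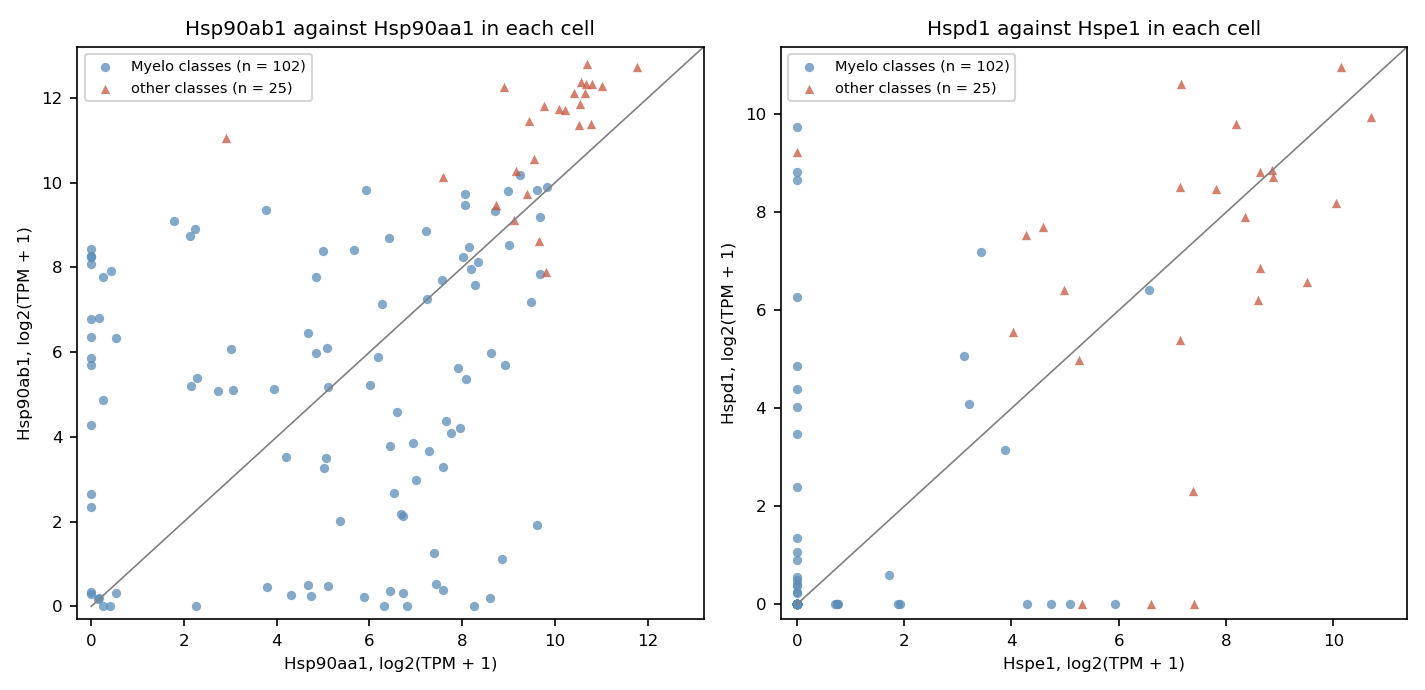
Level of Hsp90ab1 against Hsp90aa1, and of Hspd1 against Hspe1, as log2(TPM + 1) in each cell, with a line of equal level and with the 102 Myelo cells and the 25 other cells as separate markers. Of the 25 other cells 21 have both mitochondrial genes at 1 TPM or more, and 79 of the 102 Myelo cells have neither.

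Over all cells the 45 pairs of members had Spearman correlations from 0.03 to 0.62 (median 0.41), the highest being that of Hspa8 with Hsp90ab1. Over Myelo-2 cells alone the 36 pairs that could be computed ran from −0.12 to 0.33 (median 0.08), and over the 25 other cells they ran from −0.28 to 0.71 (median 0.19). The levels also went with the number of genes detected, with a correlation over all cells of 0.69 for Hsp90aa1, 0.63 for Hspa8, 0.58 for Hspe1 and 0.55 for Hsp90ab1. In Myelo-2 cells these were 0.36, 0.24, 0.20 and 0.21. Depth and class move together here, and the part of depth in the class differences was not tested.

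**Figure D5:**
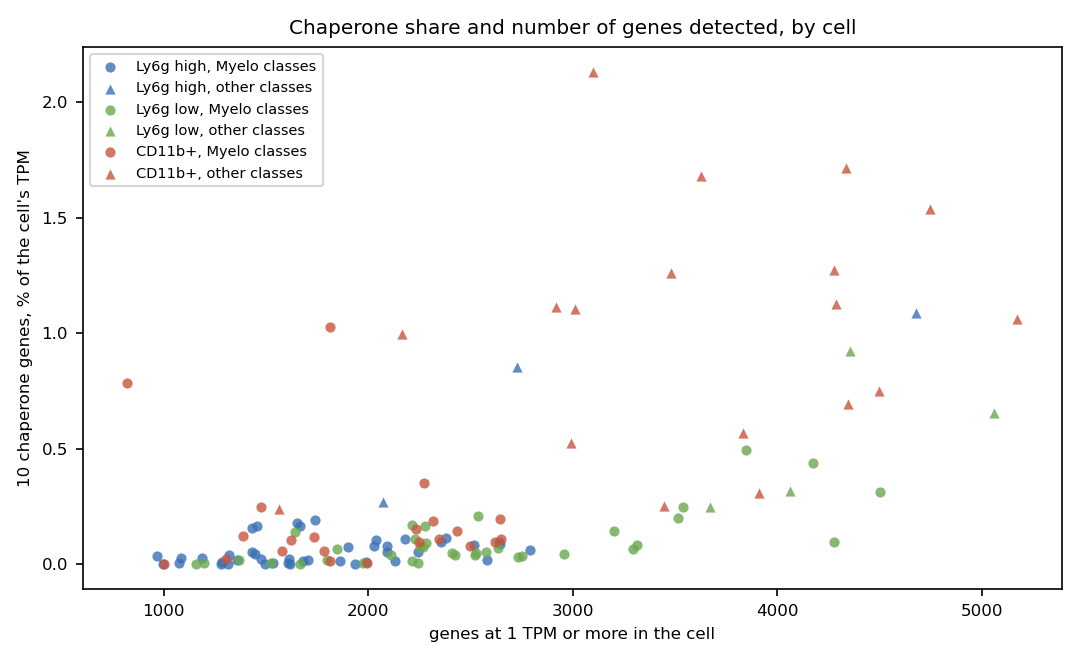
Share of each cell's TPM taken by the 10 chaperone genes, in percent, against the number of genes at 1 TPM or more in that cell, with cells marked by gate and by Myelo or other class. Cells outside the Myelo classes (median 3833 genes) have a median share of 0.923%, and Myelo cells (median 2035 genes) one of 0.0594%.

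Other genes of protein folding were read from fixed lists. In CD11b+ over Ly6g low, at least 2-fold higher were 6 of 8 subunits of the CCT chaperonin (which folds actin and tubulin), 7 of 12 other mitochondrial chaperones and proteases, 7 of 20 Hsp70 and Hsp90 co-chaperones, 4 of 18 other J-domain proteins, 3 of 9 other Hsp70, Hsp110 and Hsp90 genes, 3 of 5 prefoldin subunits, and 3 of 6 heat shock factors and regulators. Of 9 small heat shock proteins 1 was higher. At least 2-fold lower were 1 co-chaperone and 2 J-domain proteins. Read over the measured list genes alone, beside 30.3% of all measured genes higher and 7.83% lower, 6 of 8 CCT subunits were higher. The shares of the co-chaperones (4 of 13) and J-domain proteins (3 of 9) were near that background, and 3 of 7 measured mitochondrial genes were higher. The median ratio was 1.22 over the 8 CCT subunits, all of them measured, beside 0.48 over all measured genes. It was 1.17 over all 12 mitochondrial genes, but only 7 of these were measured, so 0.48 is no like background for it. The 7 measured ones were at 3.16, 2.48, 1.17, 0.62, 0.47, 0.32 and 0.27. Hspa9, the mitochondrial Hsp70, was at 138 and 14.6 TPM (3.16), and Trap1, the mitochondrial Hsp90, at 138 and 23.99 TPM (2.48). Hspa5, the Hsp70 of the endoplasmic reticulum, was at 676 and 203 TPM (1.73), while Hsp90b1, the Hsp90 of that organelle, was at 290 and 289 TPM (0.01). The cytosolic Hsp90 genes were at 1.58 and 1.89 in that comparison, as given above. Stip1, which links Hsp70 to Hsp90, was at 97.9 and 66.6 TPM (0.55), and Hsf1, the factor that induces heat shock genes, at 18.98 and 7.88 TPM (1.17). Hspb1, a small heat shock protein, was listed at 0 in all cells of both gates, and Bag3, a stress-induced partner of Hsp70, was below 1 TPM in the mean of each.

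Over Ly6g high the CD11b+ cells had 5 of 8 CCT subunits, 9 of 20 co-chaperones, 8 of 18 J-domain proteins and 5 of 12 mitochondrial genes at least 2-fold higher. Lower by that fold were 1 mitochondrial gene, 1 co-chaperone (Fkbp5, −2.11) and 2 J-domain proteins (Dnajb14, −1.29, and Dnajc21, −1.36), the last 3 named after their values were seen. Among measured genes, 5 of 8 CCT subunits, 6 of 12 co-chaperones, 4 of 9 J-domain proteins and 4 of 7 mitochondrial genes were higher, beside a background of 44.5% higher and 6.93% lower. Hspa9 was at 138 and 12.4 TPM (3.38) and Hspa5 at 676 and 95.5 TPM (2.81). Dnajb9, a J-domain protein of the endoplasmic reticulum, was at 138 and 0.202 TPM (6.85), and 1 CD11b+ cell held 55.8% of the gate's total. Between the Ly6g gates, 2 of 8 CCT subunits were at least 2-fold lower in Ly6g high and 1 was higher, beside 23.7% and 7.96% of measured genes. Also lower there were Hspa5 (95.5 and 203 TPM, −1.08) and Hsp90b1 (143 and 289 TPM).

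In CD11b+ cells outside the Myelo classes against the Myelo cells of that gate, 8 of 8 CCT subunits, 10 of 12 mitochondrial genes, 14 of 20 co-chaperones, 9 of 18 J-domain proteins and 2 of 5 prefoldin subunits were at least 2-fold higher, beside 58.1% of measured genes higher and 9.75% lower. Among measured genes these were 8 of 8, 10 of 12, 11 of 16, 8 of 13 and 2 of 5. Hspa9 had means of 304 and 1.86 TPM, with detection in 94.4% of the other cells and 4.55% of the Myelo cells. Cct3 was at 302 and 0.0918 TPM, Dnaja2, a J-domain protein, at 95.9 and 0.115 TPM, and Fkbp4, an Hsp90 co-chaperone, at 131 and 1.89 TPM. Going the other way was Pfdn5, a prefoldin subunit, at 210 and 823 TPM (−1.97), with 74.9% of the Myelo sum in 1 cell.

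Immediate early genes, which respond within minutes to handling and to signals, were higher in the same gate. Of 20 listed, 15 were at least 2-fold higher in CD11b+ than in Ly6g low and 0 lower, and 15 higher and 1 lower than in Ly6g high. Of those measured, 11 of 14 were higher over Ly6g low (background 30.3% higher and 7.83% lower) and 9 of 13 over Ly6g high (44.5% and 6.93%), with 0 lower in both. In Ly6g high against Ly6g low, 2 were higher and 8 lower, and of 13 measured 1 was higher and 4 lower (7.96% and 23.7%). Their summed level ranged from 38.8 to 4788 TPM (median 858) in Ly6g high, from 37.7 to 13330 TPM (835) in Ly6g low and from 4.10 to 24651 TPM (1881) in CD11b+ cells. Egr1 was at 698, 168 and 80.8 TPM in CD11b+, Ly6g low and Ly6g high, Fos at 1268, 408 and 282 TPM, and Dusp1 at 573, 154 and 56.2 TPM. Inside CD11b+, the HSCP-2 cells, which also stood high in Dnajb1 and Dnaja1, had a mean Egr1 of 3800 TPM, against 130 TPM in Myelo-2 cells. Fos was at 3716 and 248 TPM, Dusp1 at 1663 and 170 TPM, and Jun at 561 and 60.8 TPM. Atf3 was near 0 in both (0.126 and 0 TPM), and Klf2 went the other way (28.6 and 62.3 TPM). Within Myelo-2, 3 of the 20 were at least 2-fold higher in CD11b+ than in Ly6g low and 3 were lower, and of 10 measured 1 was higher and 0 lower (17% and 23.4%). The part of handling in the chaperone levels was not tested.

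By likeness over all cells of the 3 gates (Spearman correlation, among the 3452 genes that reached 1 TPM in 25% or more of them), the genes nearest to Hspa8 were Eef1a1 (0.68), Set (0.66), Ssr1 (0.64), Npm1 (0.63) and Hsp90ab1 (0.62). Nearest to Hsp90ab1 were Nme2 and Pebp1 (0.63 each), Hspa8 (0.62), and Psmb8 and Ly6e (0.60 each). Nearest to Hspd1 were Pa2g4 (0.63), Snhg1 and Exosc5 (0.61 each), and Lyar and Ly6e (0.60 each), and nearest to Hspe1 were Pebp1 (0.71), Nop56 (0.66), Nme2 and Snhg1 (0.65 each) and Eif3i (0.62). Nop56, Lyar, Exosc5 and Npm1 are known from the nucleolus or from RNA processing there, and Eef1a1 and Eif3i from translation. All of these went with the number of genes detected too, at 0.38 to 0.75, and over Myelo-2 cells alone none of them was among the 5 nearest of the same member.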

How the data were processed

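Per the labels, cells were caught on a Fluidigm C1 chip, with SMARTer cDNA and Nextera XT libraries, and no molecular identifiers are named. Gene values were deposited by the authors on a log2 scale, read here as log2(TPM + 1) because they sum, turned back to TPM, to between 999633 and 1005380 in each cell of the 23946-gene table. The submitters' processing notes name Bowtie2, RSEM and mm9, without versions in the sources used here. Class names are in another file that the authors deposited. All cells were used, none were clustered, and no doublet caller was run.

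Values were turned back to TPM, and groups of cells were compared by the log2 ratio of mean TPM + 1, which understates differences of genes near 1 TPM. A difference counted from 2-fold. A gene was measured if it reached 1 TPM in 25% or more of the cells of 1 of the groups, and this set gave the background shares. A gene can pass this filter through the group where it is higher alone, so counts of measured genes are no independent support. A gene at 0 in all cells of a group has no fold; it still counted as higher or lower where its ratio with the added 1 TPM passed 2-fold. Intervals are exact (Clopper-Pearson) 95% binomial intervals and cover counting error only; read depth is unknown. No p-value was computed, because each gate is 1 sample. Only the calculation of the ratio was tested, on resampled Ly6g low cells with known fold changes multiplied in.

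The members and the lists were chosen with earlier results of these data known. Named besides the 10 members were fixed genes of each list (Hspa5, Hsp90b1, Hspa9, Hspa4, Stip1, Cdc37, Hsf1, Bag3, Hspb1, Trap1 and 5 immediate early genes), the 2 list members with the largest ratio at a mean of at least 10 TPM, and the 5 genes most like Hspa8, Hsp90ab1, Hspd1 and Hspe1 (no predicted, ribosomal protein or mitochondrial-genome genes). Hspa4 and Cdc37 were at 28.5 and 31.7 TPM in CD11b+. Reading frames were taken from GENCODE transcripts and aligned. Alternatives are given in the closing section. Python 3.11.15, pandas 2.3.3, numpy 2.4.6 and scipy 1.17.1 were used.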

Additional observations from a re-analysis of the deposited data

How the results depend on the processing

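All values are counts of the 10 members at least 2-fold higher or lower, or log2 ratios, and no alternative carries a test. In CD11b+ over Ly6g low, 118 of 122 and, over Ly6g high, 129 of 132 recomputed ratios of the called members did not turn sign. Still past 2-fold in the same direction were 100 of 122 and 117 of 132. The totals include settings that cannot turn a sign, namely another pseudocount and no filter on low values. Of these, a pseudocount of 0.1 TPM and no filter cannot bring a ratio back under 2-fold either. The count of higher members over Ly6g low was 10, but 6 in even-numbered cells and 3 in Myelo cells alone, where Hsp90ab1 (−0.34), Hsph1 (−0.045), Dnaja1 (−0.36) and Dnajb1 (−0.82) turned. Over Ly6g high it was 10, but 6 in cells with 1500 to 3000 genes and 6 in Myelo cells, where Dnaja1 (−0.12), Dnajb1 (−0.41) and Hspd1 (−0.54) turned. The cause was not tested.

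The Ly6g high over Ly6g low comparison was the least stable of the 3 (1 higher, 4 lower). The higher count was 0 with a pseudocount of 10 TPM, with mean log2 values, with the 10% trimmed mean and in even-numbered cells, 3 in cells of 1500 to 3000 genes and 5 in odd-numbered cells. The lower count was 1 with 10 TPM and without the highest cell, 8 in even-numbered cells, and 0 in odd-numbered cells and in cells of 1500 to 3000 genes. Hspd1 turned to −0.51 with mean log2 values and −1.59 with the trimmed mean, and in odd-numbered cells Hspa1a was at 1.04 and Hsp90aa1 at 0.032. Odd and even cell numbers mean nothing in the design.

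Within Myelo-2, the count of members higher in CD11b+ than in Ly6g low (4) was 1 with 10 TPM, 2 with mean log2 values and with the trimmed mean, 0 without the highest cell and 1 in even-numbered cells, and the lower count (2) was 1, 0 and 1 in the first 3 of these. Hspa1b was at −0.0048 without the highest cell and at −0.059 in odd-numbered cells, and Hspe1 at −0.091 without the highest cell and −0.47 in even-numbered cells. Against Ly6g high, the higher count (5) was 2 with 10 TPM, the trimmed mean and without the highest cell, and 3 in even-numbered cells, where Hspe1 was at −0.41; the lower count (2) was 1 with 10 TPM and with mean log2 values. Between the Ly6g gates, the higher count (1) was 0 with mean log2 values and 2 in odd-numbered cells. The lower count (1) was 0 with 10 TPM, with the shallowest 25% of cells left out, in odd-numbered cells and in cells of 1500 to 3000 genes, 3 with mean log2 values, and 2 with the trimmed mean and in even-numbered cells.

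For the Gran cells over Myelo-2, 9 higher and 0 lower became 4 and 3 in cells of 1500 to 3000 genes, which leaves 1 Gran cell, with Hspa1a at −1.23, Dnaja1 at −4.001 and Dnajb1 at −1.36. In odd-numbered cells 1 was lower, and Hspa1a was at −1.29. For HSCP-2, 1 was lower with the shallowest 25% of cells left out and in even-numbered cells, as Hspa1b turned to −2.82 and −3.34 without cell 21. For the other classes over Myelo classes Hspa1b turned to −0.59 and −0.61 under the same settings. For Myelo-4, the lower count (3) was 7 with the shallowest 25% of cells left out, 5 in even-numbered cells and 6 in cells of 1500 to 3000 genes, and the higher count (0) was 1 with a pseudocount of 0.1 TPM and 3 in odd-numbered cells. With detection at 100 TPM, a cell had a median of 1, 2 and 3 members in Ly6g high, Ly6g low and CD11b+, against 3, 4 and 5.5 at 1 TPM. Leaving out Mono cell 77, chosen after seeing the data, moved no count by over 1.5 times. No paired analysis was possible because no result comes from a test and the cell numbers pair nothing across gates.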
